A study of Homo sapiens with 12 samples.

Results

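The departure of a drug pair from the sum of its single-drug effects was measured for gene expression in MDA-MB-231 cells given SAHA and pargyline. For each gene this departure, called the interaction here, is the mean of the combination arrays minus the SAHA mean minus the Pargyline mean plus the DMSO mean, all as log2 intensities. It is 0 where the combination changes a gene by the sum of both log2 effects, which means the product of both fold changes. All 12 arrays of the series entered it. Of the 22277 probe sets on the array, 19064 were listed for 1 gene, and the probe set with the highest mean over the 12 arrays stood for each of 11963 genes.

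MDA-MB-231 is an established human breast cancer cell line that lacks hormone receptors. Treatment lasted 24 h in each group: SAHA at 5 uM, pargyline at 2.5 mM, both drugs at those doses (COMBO), or DMSO as vehicle. Each group held 3 biological replicates with 1 array each, so each drug was tested at 1 dose and 1 time. Whether equally numbered cultures were grown side by side is not stated in the labels, and 3 arrays a group limit the precision. In these bulk RNA samples a change in the share of a kind of cell cannot be told apart from a change of RNA per cell.

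SAHA (vorinostat) inhibits zinc-dependent histone deacetylases, the enzymes that remove acetyl groups from histones and other proteins. Pargyline inactivates monoamine oxidases irreversibly and, at high concentrations, has been used as an inhibitor of the related histone demethylase KDM1A (LSD1), which removes methyl groups from lysine 4 of histone H3. Histone deacetylases and KDM1A sit together in corepressor complexes such as that of RCOR1 (CoREST), and the combination tests whether inhibiting both kinds of enzyme acts on genes beyond the sum of the single drugs.

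Array medians lay between 5.15 and 5.38, and arrays of one group correlated at 0.998 to 0.999. VIM, a mesenchymal marker, stood at 14.8 to 14.9 in the 4 group means, while ESR1 (3.08 to 3.15), PGR (2.14 to 2.18) and CDH1 (2.05 to 2.12) were low in all groups. The other epithelial and luminal markers looked at were not low in DMSO: KRT18 (13.35), KRT8 (11.59), GATA3 (9.23), EPCAM (8.42) and ERBB2 (8.28). With SAHA the means of GATA3, EPCAM and ERBB2 were lower, at 6.27, 5.94 and 5.19. Of 14 leukocyte markers the highest group mean was 2.67, and of 10 fibroblast markers it was 6.31, that of COL1A1 with SAHA (6.22 in DMSO). None of either list passed for the interaction. The array median itself had an interaction of -0.08 ± 0.04 (SE), so the COMBO arrays stood above DMSO by less than the sum of the single drugs in this measure too. The 3'-to-5' signal difference of actin, a measure of RNA integrity, had an interaction of 0.04 ± 0.11 (SE). The mean of the spiked poly-A controls had one of 0.33 ± 0.20 (SE), and the mean of the hybridization controls one of -0.09 ± 0.23 (SE). The part of these measures in the results was not tested.

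Most genes showed no detectable departure from additivity. Of those that did depart, more were counted short of the sum than beyond it, a split that arrays shared with the single-drug comparisons favour. The interaction passed at a Benjamini-Hochberg adjusted p under 0.05 in limma for 445 of 11963 genes (3.72%), of which 153 were above 0 (1.28%) and 292 below 0 (2.44%). Of these, 143 departed by at least 2-fold, 33 upward and 110 downward, and the median absolute interaction of the 445 was 0.78. Without adjustment 2055 genes had a p under 0.05. Over all genes the median interaction was -0.004, with 5% of genes below -0.59 and 5% above 0.45. For 7278 genes (60.8%) the 95% confidence interval of the interaction lay within 0.5 log2 units of 0 on both sides. These were 3797 of the 3988 genes in the lower tertile of mean level (95.2%), at the low end of the array, and 3481 of the other 7975 genes (43.6%).

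The number of interaction genes depended on single arrays and on their weights. With arrays weighted by how closely they fitted their group it was 1079, 446 above and 633 below 0. With equal weights it was 245 without DMSO replicate 2, 246 without COMBO replicate 2, 251 without DMSO replicate 1 and 261 without SAHA replicate 2, and it was 656 without COMBO replicate 3. In all, 187 genes passed in each of the 12 fits that left out 1 array, 59 above 0 and 128 below 0. These are called the held genes. Besides 4 genes named for lying at the threshold and those named only to show the limits of the gene lists, 54 genes named here passed. Of these 54 genes 47 were held, and the others are marked. When each array was centred on its median the interaction of every gene rose by 0.08, and the 435 genes that then passed divided into 220 above and 215 below 0, so 50.6% instead of 34.4% were above. All 445 genes kept their sign under that centring, but the excess of genes below 0 was not seen with it. After quantile normalization 146 genes passed above 0 and 260 below.

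The effect of pargyline was compared without SAHA (Pargyline minus DMSO) and with SAHA (COMBO minus SAHA), comparisons that share no array. Pargyline alone raised 1014 genes (8.48%) and lowered 891 (7.45%). The raised genes had a median change of 0.60 alone and 0.26 beside SAHA, where 824 of them (81.3%) still had a change above 0. The lowered genes had medians of -0.40 alone and -0.24 beside SAHA, where 766 (86.0%) had a change below 0. The genes were chosen on the change alone, which makes that median the larger one even for genes of equal change. Over the 11963 genes the effects correlated with a Pearson r of 0.50, as a description, since genes are not independent replicates and every point shares the cell line and the array design.

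The effect of SAHA was compared in the same way. SAHA alone raised 2754 genes (23%) and lowered 2768 (23.1%), with medians of 0.84 and -0.78. In the cells that also had pargyline (COMBO minus Pargyline) the medians of these genes were 0.78 and -0.76, and 96.7% and 97.0% kept their sign. The r over genes was 0.93. Of the 1905 genes that pargyline moved alone, 800 passed in the same direction beside SAHA, 1075 did not pass and 30 passed in the opposite direction. Of the 5522 genes that SAHA moved alone, 4703 passed in the same direction beside pargyline, 796 did not and 23 passed in the opposite direction.

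**Figure D1:**
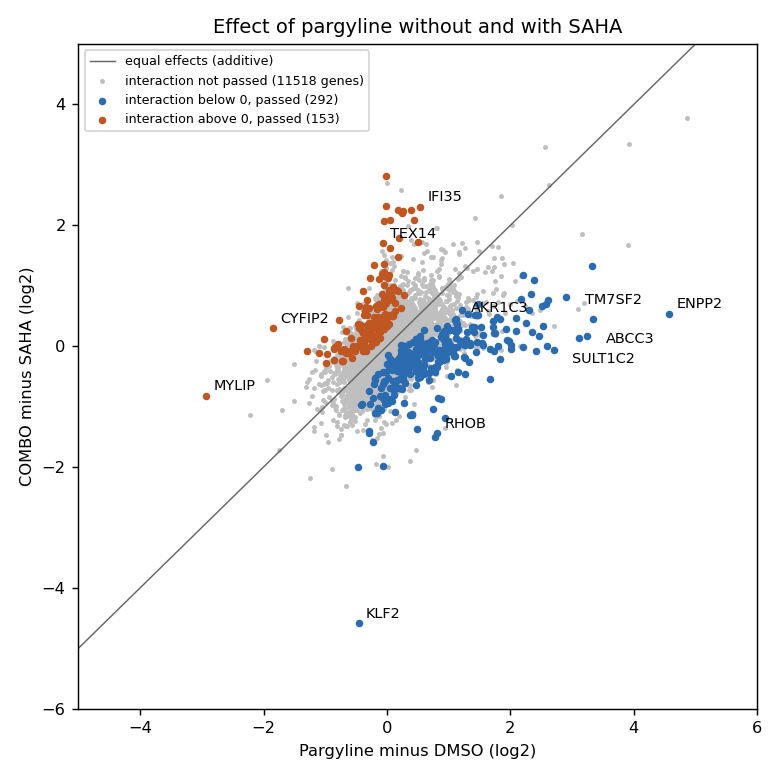
Effect of pargyline on 11963 genes without SAHA (horizontal, Pargyline minus DMSO, log2) and with SAHA (vertical, COMBO minus SAHA, log2), with the line of equal effects. Points are genes, coloured where the interaction passed: 292 lie below the line and 153 above it, and ENPP2, at 4.57 on the horizontal axis, lies at 0.54 on the vertical axis.

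The interaction genes were grouped by their single-drug responses, as a description, since the single-drug comparisons use the same arrays. The SAHA, Pargyline and DMSO arrays enter the interaction with the sign opposite to that in a single-drug change. An error that enlarges a single-drug change therefore moves the interaction towards short of the sum, which favours that form. Short of the sum means an interaction opposed to the single-drug change, also where the combination crossed to the other side of DMSO, as for KLF2. The most frequent form was a response to both drugs in one direction with a combination short of the sum, which held for 175 genes (39.3% of the 445), 130 of them raised by both and 45 lowered by both. A further 78 responded to SAHA only and 49 to pargyline only and were short of the sum. Only 3 genes that both drugs moved in one direction went beyond the sum, against 44 that responded to SAHA only and 1 that responded to pargyline only. The drugs moved 56 interaction genes in opposite directions, and 39 had passed for neither drug. Counting forms together, 302 genes were short of the sum and 48 beyond it. These numbers were 168 and 27 without COMBO replicate 2, 175 and 19 without DMSO replicate 2, 173 and 27 without DMSO replicate 1, and 171 short of the sum without SAHA replicate 2. Without COMBO replicate 3, 127 were beyond the sum.

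**Figure D2:**
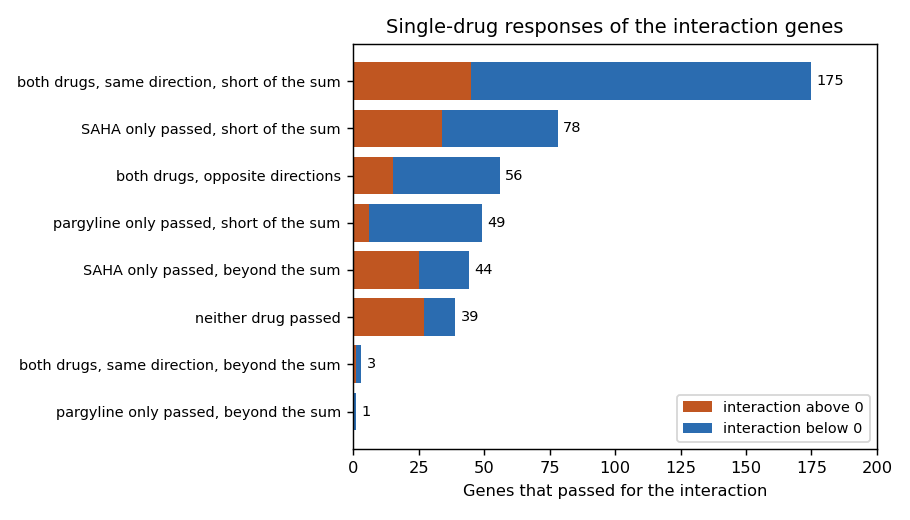
Number of interaction genes by single-drug response (horizontal, genes), with bars split into interactions above and below 0. The longest bar is the 175 genes that both drugs moved in one direction and that fell short of the sum, 130 of them below 0.

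Among all 1075 genes that both drugs moved in one direction, 178 passed for the interaction (16.6%), while for 427 (39.7%) the 95% interval lay within 0.5 of 0 and for 482 neither applied. Of the 565 that both raised, 130 passed below 0 and 1 above. In 70 of those 130 the COMBO mean did not exceed the higher single-drug mean, and in 60 it did. The level that additivity predicted for these 130 lay at or below 14.4, the 99th percentile of gene values, in 121, and in none was it above 15.9, the highest value measured.

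Several genes raised strongly by both drugs reached in the combination a level near that of the stronger drug. ENPP2, which encodes autotaxin, a secreted enzyme that makes the signalling lipid lysophosphatidic acid, had log2 values of 4.41, 3.93 and 3.10 in DMSO, 10.28, 10.41 and 10.41 in SAHA, 8.29, 8.24 and 8.63 in Pargyline, and 10.77, 10.98 and 10.96 in COMBO. The 4 groups did not overlap, and the COMBO arrays stood just above the SAHA arrays. The interaction was -4.03 ± 0.38 (SE, adjusted p = 0.00131), with an additive prediction of 14.93 for COMBO. A second probe set of ENPP2 gave -2.34. If effects were added as linear intensities instead, COMBO stood 0.23 above the sum on the log2 scale, so the shortfall of ENPP2 was relative to the sum of log2 effects.

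TM7SF2, a sterol reductase of cholesterol synthesis, had values of 4.53, 3.39 and 3.76 in DMSO, 8.56, 8.55 and 8.40 in SAHA, 7.16, 7.05 and 7.47 in Pargyline, and 8.76, 9.18 and 8.94 in COMBO. COMBO was again the highest group, and only 0.45 above SAHA. Its interaction was -2.88 ± 0.35 (SE, adjusted p = 0.0048). On linear intensities COMBO differed from the sum by -0.00195 on the log2 scale, so the shortfall of TM7SF2 was present only on the log2 scale. TMEM45A, a transmembrane protein, had values of 7.38, 7.66 and 7.06 in DMSO, 10.92, 11.06 and 11.35 in SAHA, 10.04, 9.59 and 9.89 in Pargyline, and 11.11, 11.33 and 11.37 in COMBO. The SAHA and COMBO arrays overlapped, and the interaction was -2.31 ± 0.25 (SE, adjusted p = 0.00223). RPS6KA2, a kinase downstream of ERK signalling, went from a DMSO mean of 5.64 to 8.85 with SAHA, 8.0 with pargyline and 9.09 with both, an interaction of -2.12 ± 0.20 (SE, adjusted p = 0.00118).

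The aldo-keto reductases AKR1C3 and AKR1C2 reduce steroids and prostaglandins and are known targets of the oxidative stress factor NRF2. AKR1C3 had values of 9.59, 9.78 and 9.79 in DMSO, 11.94, 12.08 and 12.11 in SAHA, 12.31, 12.24 and 12.19 in Pargyline, and 12.21, 12.41 and 12.52 in COMBO. Each drug alone brought AKR1C3 within 0.33 log2 units of the combination, and the SAHA arrays lay below the lowest COMBO array while Pargyline and COMBO overlapped. Its interaction was -2.19 ± 0.12 (SE, adjusted p = 8.21e-05). AKR1C2 had values of 8.76, 9.28 and 8.87 in DMSO, 9.66, 9.86 and 9.71 in SAHA, 11.39, 11.73 and 11.61 in Pargyline, and 10.03, 10.64 and 10.84 in COMBO. Here the combination stood between SAHA and pargyline without overlap, so that SAHA, which raised AKR1C2 by 0.77 alone, lowered it by 1.07 in the presence of pargyline (COMBO minus Pargyline -1.07). The interaction was -1.85 ± 0.29 (SE, adjusted p = 0.012). Probe sets of these close relatives can bind each other's transcripts, so their values are not separate measurements.

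GABARAPL1, an autophagosome protein of the ATG8 family, had values of 5.22, 5.09 and 5.31 in DMSO, 7.87, 7.90 and 7.96 in SAHA, 7.0, 7.27 and 7.13 in Pargyline, and 8.03, 8.26 and 8.29 in COMBO, and its COMBO arrays lay just above the SAHA arrays. Its interaction was -1.64 ± 0.13 (SE, adjusted p = 0.000398). The largest rises common to both drugs included genes whose interaction did not pass. GDF15, a stress-induced cytokine, had values of 6.51, 7.46 and 4.73 in DMSO, 9.64, 9.76 and 9.997 in SAHA, 10.36, 10.13 and 9.93 in Pargyline, and 11.17, 11.97 and 11.27 in COMBO. COMBO was the highest group, the DMSO arrays were spread from 4.73 to 7.46, and the interaction was -2.24 ± 0.79 (SE, adjusted p = 0.173). STC1, a secreted glycoprotein, had group means of 7.03, 12.53, 10.22 and 13.24 in the order DMSO, SAHA, Pargyline, COMBO, and an interaction of -2.48 ± 0.60 (SE, adjusted p = 0.0572). CDKN1A, the cell cycle inhibitor p21, rose with each drug from a mean of 7.07 to 10.89 with SAHA and 9.15 with pargyline, reached 11.96 with both, and had an interaction of -1.0 ± 0.35 (SE, adjusted p = 0.166).

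A further set of genes rose with single drugs and was lower in the combination than with 1 of them. RHOB, a small GTPase that localizes to endosomes, had values of 10.68, 10.90 and 10.90 in DMSO, 13.14, 13.60 and 13.29 in SAHA, 11.66, 11.38 and 11.87 in Pargyline, and 11.95, 11.89 and 11.88 in COMBO. All COMBO arrays lay below all SAHA arrays and above all Pargyline arrays. Pargyline thus raised RHOB by 0.81 alone and lowered it by 1.44 in the presence of SAHA (COMBO minus SAHA -1.44), and the interaction was -2.25 ± 0.20 (SE, adjusted p = 0.000857). IGFBP3, a secreted carrier of insulin-like growth factors, had values of 8.95, 9.21 and 9.03 in DMSO, 11.82, 11.81 and 11.96 in SAHA, 9.58, 9.27 and 9.54 in Pargyline, and 10.41, 10.71 and 11.06 in COMBO. Its COMBO arrays lay between SAHA and Pargyline without overlap, with an interaction of -1.54 ± 0.22 (SE, adjusted p = 0.0079). CSGALNACT1, an enzyme that starts chondroitin sulfate chains, had means of 6.44, 7.72, 9.34 and 8.54 in DMSO, SAHA, Pargyline and COMBO. Its interaction was -2.08 ± 0.35 (SE, adjusted p = 0.0158).

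KLF2, a zinc finger transcription factor, had the interaction furthest from 0. Its values were 9.28, 9.26 and 9.32 in DMSO, 9.86, 10.93 and 10.86 in SAHA, 8.77, 8.59 and 9.13 in Pargyline, and 5.64, 5.76 and 6.48 in COMBO. All 3 COMBO arrays lay below every other array, although SAHA alone had raised KLF2 by 1.26. In the presence of pargyline SAHA lowered it by 2.87 (COMBO minus Pargyline -2.87), and the interaction was -4.13 ± 0.43 (SE, adjusted p = 0.00206), against an additive prediction of 10.09.

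S100 proteins are small calcium-binding proteins. S100A2 had values of 9.01, 9.22 and 8.85 in DMSO, 6.87, 7.42 and 7.39 in SAHA, 10.09, 9.77 and 9.69 in Pargyline, and 6.13, 6.51 and 6.45 in COMBO. Its COMBO arrays were the lowest of all, below SAHA, while pargyline alone had raised it. The interaction was -1.69 ± 0.25 (SE, adjusted p = 0.0095). S100A3 and S100A4, named after their values were seen, had interactions of -1.72 ± 0.17 (SE, adjusted p = 0.00151) and -1.79 ± 0.16 (SE, adjusted p = 0.000857). S100A4 was raised by both drugs, from 8.07 to 9.57 with SAHA and 8.82 with pargyline, and stood at 8.53 in COMBO. S100A3 was lowered by SAHA and raised by pargyline, with means of 4.06, 3.43, 5.32 and 2.97 in the same order of groups.

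**Figure D3:**
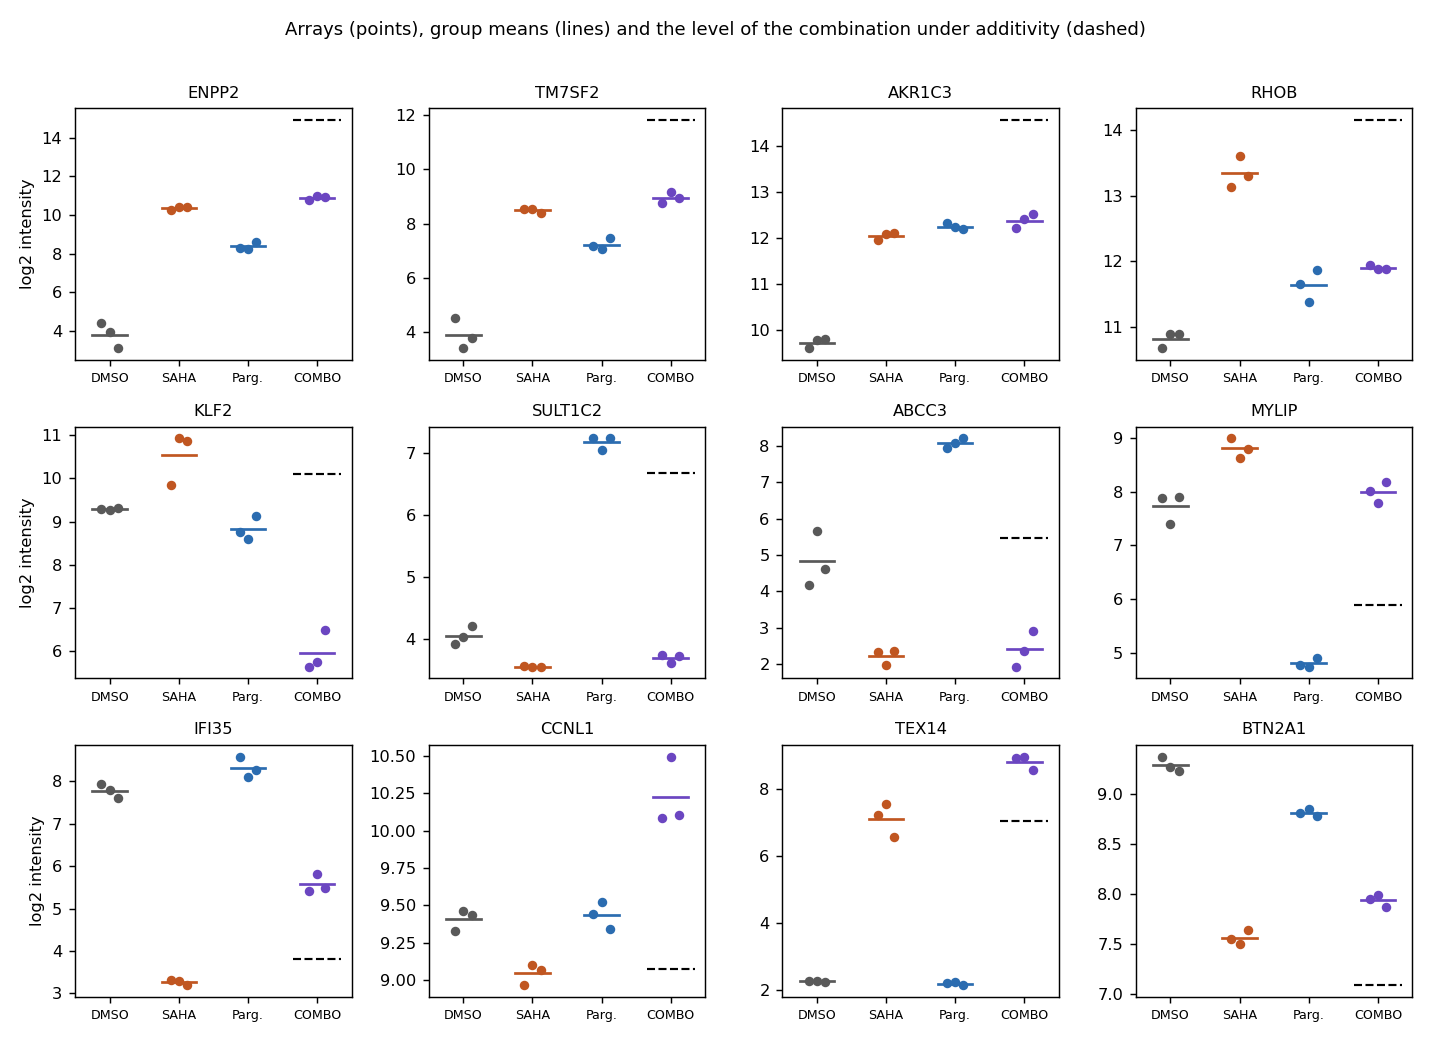
Log2 intensity (vertical) of 12 interaction genes in the 4 groups, with 3 arrays a group as points, group means as solid lines and the additive prediction for COMBO as a dashed line; vertical scales differ between genes. COMBO arrays of ENPP2, TM7SF2, AKR1C3, RHOB, KLF2, SULT1C2 and ABCC3 lie below the dashed line and those of MYLIP, IFI35, CCNL1, TEX14 and BTN2A1 above it.

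Of 417 genes that the drugs moved in opposite directions 56 passed for the interaction, beside 3.72% of all genes. In 49 of the 56 the interaction had the sign of the SAHA change. Arrays shared with the single-drug comparisons enter this split too. An error of the Pargyline arrays that enlarges the pargyline change moves the interaction towards that sign. Such an error of the SAHA arrays moves it away. Their part in the split was not tested. Of 219 genes that SAHA lowered and pargyline raised, 36 passed for the interaction below 0 and 2 above. Of 198 that SAHA raised and pargyline lowered, 13 passed above 0 and 5 below. SULT1C2, a sulfotransferase that conjugates small molecules, had values of 3.92, 4.03 and 4.21 in DMSO, 3.57, 3.56 and 3.56 in SAHA, 7.24, 7.05 and 7.23 in Pargyline, and 3.75, 3.62 and 3.73 in COMBO. The rise with pargyline was not detected beside SAHA, and the COMBO arrays lay below the DMSO arrays. The interaction was -2.98 ± 0.11 (SE, adjusted p = 3.46e-06), the smallest adjusted p of all genes. Further probe sets of SULT1C2 gave -4.45 and -0.02.

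ABCC3, an efflux transporter of conjugated compounds, had values of 4.19, 5.67 and 4.62 in DMSO, 2.34, 1.99 and 2.36 in SAHA, 7.94, 8.07 and 8.21 in Pargyline, and 1.93, 2.36 and 2.92 in COMBO. SAHA and COMBO arrays overlapped and were the lowest. Their means of 2.23 and 2.40 lay below 2.51, the lower tertile of all probe set values, where little further fall can be measured. The interaction was -3.07 ± 0.50 (SE, adjusted p = 0.0146), and a further probe set gave -2.08. ORAI3, a subunit of store-operated calcium channels that passed for pargyline alone, had values of 5.46, 5.41 and 6.13 in DMSO, 5.14, 4.93 and 5.41 in SAHA, 7.29, 7.13 and 7.61 in Pargyline, and 4.21, 4.54 and 5.10 in COMBO. Its COMBO arrays lay below all DMSO and Pargyline arrays, with an interaction of -2.22 ± 0.37 (SE, adjusted p = 0.0153).

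In the other direction, CYFIP2, a subunit of the actin-regulating WAVE complex, had values of 5.06, 5.35 and 5.38 in DMSO, 9.85, 9.89 and 9.78 in SAHA, 3.0, 3.08 and 4.20 in Pargyline, and 10.14, 10.17 and 10.11 in COMBO. Pargyline lowered CYFIP2 alone, and the COMBO arrays were the highest of all. The interaction was 2.14 ± 0.38 (SE, adjusted p = 0.018), and 0.85 by a second probe set. MYLIP, a ubiquitin ligase that directs the LDL receptor to degradation, had values of 7.88, 7.40 and 7.90 in DMSO, 8.99, 8.63 and 8.80 in SAHA, 4.78, 4.73 and 4.90 in Pargyline, and 8.01, 7.78 and 8.18 in COMBO. Pargyline lowered MYLIP by 2.92 alone (Pargyline minus DMSO -2.92) and by 0.82 beside SAHA (COMBO minus SAHA -0.82), and the COMBO and DMSO arrays overlapped. Its interaction was 2.11 ± 0.22 (SE, adjusted p = 0.00201). On linear intensities the combination of MYLIP differed from the sum by -0.06 on the log2 scale, so this departure was present only on the log2 scale.

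IFI35, an interferon-induced protein, had values of 7.93, 7.79 and 7.62 in DMSO, 3.31, 3.29 and 3.19 in SAHA, 8.58, 8.11 and 8.26 in Pargyline, and 5.41, 5.81 and 5.49 in COMBO. The COMBO arrays lay between SAHA and DMSO without overlap, and the interaction was 1.77 ± 0.20 (SE, adjusted p = 0.00283). On linear intensities it turned to -1.20. TXNIP, an inhibitor of thioredoxin, was among the strongest opposite responses, and no departure of its combination from the sum was detected. It had values of 9.80, 9.62 and 9.30 in DMSO, 12.87, 13.25 and 12.67 in SAHA, 7.68, 7.95 and 7.86 in Pargyline, and 11.06, 11.52 and 11.05 in COMBO. The additive prediction of 11.19 for TXNIP compares with a COMBO mean of 11.21, and the interaction was 0.03 ± 0.27 (SE, adjusted p = 0.985), with a 95% interval from -0.57 to 0.62.

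Of the 510 genes that both drugs lowered, 45 passed above 0, which means a smaller fall than the sum, and 2 below. In 6 of the 45 the predicted level was below 2.51, and in 15 COMBO was below both single-drug means. BTN2A1, a butyrophilin of the cell surface, had values of 9.37, 9.27 and 9.23 in DMSO, 7.55, 7.50 and 7.64 in SAHA, 8.81, 8.85 and 8.79 in Pargyline, and 7.95, 8.0 and 7.87 in COMBO. The groups did not overlap, and COMBO lay between SAHA and Pargyline. Its interaction was 0.85 ± 0.07 (SE, adjusted p = 0.000763). KHDRBS3, an RNA-binding regulator of splicing, fell with each drug, and in COMBO it overlapped with DMSO, with values of 9.86, 9.78 and 9.80 in DMSO, 9.15, 9.13 and 8.97 in SAHA, 9.64, 9.43 and 9.38 in Pargyline, and 9.93, 9.68 and 9.62 in COMBO. The interaction was 0.99 ± 0.13 (SE, adjusted p = 0.00598). THADA had values of 9.82, 9.84 and 9.90 in DMSO, 9.51, 9.55 and 9.49 in SAHA, 9.02, 9.25 and 9.30 in Pargyline, and 9.73, 9.91 and 9.67 in COMBO, which likewise overlapped between COMBO and DMSO, and an interaction of 0.92 ± 0.11 (SE, adjusted p = 0.00368).

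NPM3, a nucleolar chaperone, had values of 10.97, 10.91 and 10.77 in DMSO, 9.78, 9.81 and 9.80 in SAHA, 9.88, 9.94 and 9.85 in Pargyline, and 9.42, 9.53 and 9.62 in COMBO, with COMBO below both drugs. Its interaction was 0.72 ± 0.08 (SE, adjusted p = 0.00368). Strong falls common to both drugs that did not pass included EPCAM, an epithelial adhesion protein, at 0.65 ± 0.31 (SE, adjusted p = 0.333), and PER2, a repressor of the circadian clock, at 0.70 ± 0.20 (SE, adjusted p = 0.102). PLK1, a kinase that drives mitosis, had means of 7.67, 3.41, 6.40 and 2.47 in DMSO, SAHA, Pargyline and COMBO, and an interaction of 0.32 ± 0.37 (SE, adjusted p = 0.787).

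Among genes beyond the sum, TEX14, which encodes a protein of germ cell bridges, had values of 2.25, 2.28 and 2.23 in DMSO, 7.21, 7.56 and 6.56 in SAHA, 2.20, 2.23 and 2.14 in Pargyline, and 8.91, 8.96 and 8.57 in COMBO. It was near the low end of the array in the DMSO and Pargyline arrays, rose with SAHA, and was higher again in every COMBO array. The interaction was 1.77 ± 0.30 (SE, adjusted p = 0.0153). H4C8, a histone H4 gene whose probe set can bind transcripts of its relatives, had values of 4.87, 4.47 and 4.90 in DMSO, 6.84, 7.25 and 6.90 in SAHA, 5.06, 4.66 and 5.03 in Pargyline, and 8.55, 8.50 and 8.36 in COMBO. The COMBO arrays were above all others, with an interaction of 1.30 ± 0.22 (SE, adjusted p = 0.0158). CREM, a transcription factor that responds to cAMP and is named here after its values were seen, had means of 8.53, 9.29, 8.56 and 10.22 in the order DMSO, SAHA, Pargyline, COMBO, and an interaction of 0.89 ± 0.11 (SE, adjusted p = 0.00486).

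Other genes were moved by the combination in a direction in which neither drug alone had passed. CCNL1, a cyclin that acts with splicing-related kinases, had values of 9.33, 9.46 and 9.44 in DMSO, 8.96, 9.10 and 9.07 in SAHA, 9.45, 9.53 and 9.34 in Pargyline, and 10.09, 10.50 and 10.11 in COMBO. The COMBO arrays lay above all others, while SAHA alone lowered CCNL1. Its interaction was 1.16 ± 0.15 (SE, adjusted p = 0.00513). HIP1, a clathrin adaptor, had values of 8.29, 8.41 and 8.64 in DMSO, 8.02, 8.17 and 7.63 in SAHA, 8.25, 8.16 and 8.29 in Pargyline, and 9.54, 9.31 and 9.02 in COMBO. COMBO had the highest mean and SAHA the lowest, and the COMBO arrays did not overlap with the others. It had an interaction of 1.56 ± 0.23 (SE, adjusted p = 0.00942). PHYH, a peroxisomal enzyme of phytanic acid breakdown, passed for neither single drug and was lowest in COMBO, with values of 10.14, 10.23 and 10.41 in DMSO, 10.13, 10.24 and 10.21 in SAHA, 10.41, 10.58 and 10.53 in Pargyline, and 9.38, 9.37 and 9.71 in COMBO and an interaction of -0.96 ± 0.14 (SE, adjusted p = 0.00946).

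DDIT3, the stress-induced transcription factor CHOP, and FASN, the fatty acid synthase, passed for neither drug alone and were high only in the combination. DDIT3 had values of 8.48, 8.39 and 7.78 in DMSO, 8.42, 8.55 and 8.49 in SAHA, 8.53, 8.50 and 8.16 in Pargyline, and 10.74, 11.49 and 9.99 in COMBO. All COMBO arrays lay above all others but were spread from 9.99 to 11.49, and the interaction was 2.07 ± 0.46 (SE, adjusted p = 0.0426). FASN had values of 10.71, 10.52 and 11.16 in DMSO, 10.87, 10.27 and 11.20 in SAHA, 10.93, 10.36 and 11.26 in Pargyline, and 12.95, 13.24 and 12.43 in COMBO. Its COMBO arrays also lay above all others, and the interaction was 2.04 ± 0.45 (SE, adjusted p = 0.0405). Neither was held. DDIT3 passed without DMSO replicate 3 or COMBO replicate 3 and in none of the other 10 fits without 1 array, with interactions from 1.70 to 2.14. FASN passed without SAHA replicate 3, Pargyline replicate 3 or COMBO replicate 3 and in none of the other 9, with interactions from 1.79 to 2.18, and not after quantile normalization. DDIT3 did not pass with every probe set tested on its own. A second probe set of FASN, near the low end of the array, gave 0.13.

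The combination was also set against the stronger of the single drugs. In 1063 genes (8.89%), 486 higher and 577 lower, the combination passed against both single drugs and against DMSO in the same direction. That count was 655 without COMBO replicate 2. Of these 1063 genes 114 passed for the interaction, beside 445 of all 11963 genes (3.72%). In 101 of the 114 it had the direction of the combination's change. Most of the 1063 did not pass for the interaction, and a missed threshold does not show additivity.

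Gene lists for pathways were described by counts and medians, beside 3.72% of genes passing and a median of -0.004 over all genes. A list does not hold every gene of its kind. H3C2, a histone gene, LPL, a lipase, and CTSK, a lysosomal protease, passed outside the lists and were named after their values were seen. Their interactions were 1.23 ± 0.18 (SE, adjusted p = 0.0095), 1.21 ± 0.22 (SE, adjusted p = 0.0196) and 1.97 ± 0.27 (SE, adjusted p = 0.0073). All were held, and none reached the level that the naming rule required. Of the drugs' targets and partners 0 of 21 measured members passed for the interaction, 0 to 1 in the fits without 1 array, with a median of -0.12. The confidence interval lay within 0.5 of 0 for 8 of the 21. The other members were left undetermined, so the count of 0 does not show additivity for them. The lowest and highest interactions were those of the deacetylases HDAC5, at -0.69 ± 0.27 (SE, adjusted p = 0.214), and HDAC7, at 1.11 ± 0.57 (SE, adjusted p = 0.388). KDM1A, the demethylase named above, had values of 10.48, 10.53 and 10.32 in DMSO, 10.85, 10.56 and 10.56 in SAHA, 10.11, 9.88 and 10.01 in Pargyline, and 10.18, 10.26 and 10.28 in COMBO and an interaction of 0.03 ± 0.13 (SE, adjusted p = 0.958). MAOA, a monoamine oxidase, had means of 7.34, 8.54, 7.76 and 8.83 in the same order and an interaction of -0.12 ± 0.16 (SE, adjusted p = 0.816), while MAOB lay between 2.27 and 2.73 in all 12 arrays. Interactions of HDAC1 and HDAC2, deacetylases of the corepressor complexes, were -0.13 ± 0.06 (SE, adjusted p = 0.345) and -0.23 ± 0.10 (SE, adjusted p = 0.275), and that of RCOR1 was -0.30 ± 0.10 (SE, adjusted p = 0.16).

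Sterol and lipid genes were counted in 4 lists. In cholesterol synthesis 3 of 16 members passed below 0 and none above, with a median of -0.22. They were TM7SF2, ACAT2, a thiolase, and HSD17B7, a sterol reductase. ACAT2 fell with SAHA and rose with pargyline, with values of 12.10, 11.95 and 12.16 in DMSO, 11.21, 11.19 and 10.997 in SAHA, 12.85, 12.97 and 12.99 in Pargyline, and 11.34, 11.40 and 11.12 in COMBO. Its COMBO arrays overlapped with SAHA, and its interaction was -0.71 ± 0.13 (SE, adjusted p = 0.018). HSD17B7 had an interaction of -0.97 ± 0.18 (SE, adjusted p = 0.024) and was not held, since it did not pass without DMSO replicate 1, SAHA replicate 1, SAHA replicate 2 or Pargyline replicate 1 (-0.99 to -0.92). MYLIP was the 1 of 14 SREBP regulators and sterol efflux genes that passed, and FASN the 1 of 12 in fatty acid synthesis. None of the 17 fatty acid oxidation and PPAR genes in the list passed, and LPL lay outside it.

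Of 32 oxidative stress and NRF2 targets 5 passed below 0 and none above, with a median of -0.17. Of these AKR1C2, AKR1C3 and ABCC3 were held. Most of the 5 were aldo-keto reductases of the AKR1C family, whose values are not separate measurements. Of 33 hypoxia and glycolysis genes 6 passed below 0 and none above, with a median of -0.07 that became 0.002 under centring. The held ones were EGLN3, a prolyl hydroxylase that marks HIF for degradation, at -1.26 ± 0.20 (SE, adjusted p = 0.0132), and MXI1, an antagonist of MYC, at -1.18 ± 0.20 (SE, adjusted p = 0.0158). EGLN3 had values of 5.40, 5.30 and 5.64 in DMSO, 7.69, 7.28 and 7.31 in SAHA, 6.60, 6.37 and 6.63 in Pargyline, and 7.36, 7.04 and 7.40 in COMBO, in which SAHA and COMBO overlapped above Pargyline.

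Of 33 ATF4 targets 4 passed below 0 and 1, DDIT3, above, with a median of -0.004 that became 0.07 under centring. CTH, an enzyme of cysteine synthesis, had values of 9.48, 9.61 and 9.14 in DMSO, 10.60, 10.73 and 10.61 in SAHA, 10.84, 10.91 and 10.69 in Pargyline, and 11.05, 11.05 and 10.80 in COMBO, with COMBO overlapping the Pargyline group, and an interaction of -1.08 ± 0.17 (SE, adjusted p = 0.012). SHMT2, a mitochondrial enzyme of serine metabolism, was named after its values were seen and had an interaction of -0.52 ± 0.05 (SE, adjusted p = 0.00213). ATF3, a stress-induced transcription factor, had means of 4.16, 8.84, 6.55 and 9.92 in DMSO, SAHA, Pargyline and COMBO and an interaction of -1.30 ± 0.28 (SE, adjusted p = 0.0377). ATF3 passed only without DMSO replicate 2, DMSO replicate 3 or COMBO replicate 3 among the fits without 1 array (-1.42 to -1.16 in the others), not after quantile normalization or centring, and turned to 0.87 on linear intensities. Of 25 endoplasmic reticulum chaperones 1 passed on each side, and neither was held. HSP90B1, the chaperone GRP94, was the one above 0, at 0.45 ± 0.10 (SE, adjusted p = 0.0373), and passed only without DMSO replicate 1 or COMBO replicate 3 (0.40 to 0.48 in the others), and not with the mean of all its probe sets. None of 20 heat shock genes or 9 metallothionein and zinc response genes passed, with medians of 0.10 and -0.18.

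Of 37 immediate early and MAPK feedback genes 9 (24.3%) passed below 0 and none above, and 6 below 0 after quantile normalization, with a median of -0.09 (-0.02 under centring). Besides KLF2 the held ones were DUSP1, DUSP5, JUNB and IER3, the last 3 named after their values were seen. DUSP1, a phosphatase that inactivates MAP kinases, had values of 11.92, 11.61 and 11.49 in DMSO, 14.30, 14.42 and 14.42 in SAHA, 13.24, 12.71 and 13.01 in Pargyline, and 14.44, 14.50 and 14.38 in COMBO. Its SAHA and COMBO arrays overlapped, and its interaction was -1.25 ± 0.19 (SE, adjusted p = 0.0116). JUNB, a subunit of AP-1, had values of 5.48, 5.49 and 5.43 in DMSO, 7.92, 8.17 and 8.01 in SAHA, 6.55, 6.22 and 6.33 in Pargyline, and 8.04, 7.92 and 7.81 in COMBO, with SAHA and COMBO overlapping, and an interaction of -1.01 ± 0.13 (SE, adjusted p = 0.0061). DUSP5, a phosphatase of ERK, and IER3, an early response gene, had interactions of -0.47 ± 0.07 (SE, adjusted p = 0.0102) and -0.76 ± 0.11 (SE, adjusted p = 0.00835). Counts of this list ranged from 5 to 11 over the fits without 1 array.

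Of 41 lysosome and autophagy genes 4 passed below 0 and 1 above, with a median of -0.05 (0.03 under centring). LAMP3, a lysosomal membrane protein, had values of 3.53, 3.73 and 3.59 in DMSO, 9.56, 9.39 and 9.48 in SAHA, 4.85, 4.84 and 4.47 in Pargyline, and 9.08, 9.33 and 9.51 in COMBO, with SAHA and COMBO overlapping, and an interaction of -1.27 ± 0.18 (SE, adjusted p = 0.00809). CTSD, the protease cathepsin D, rose with pargyline only, with values of 8.68, 8.65 and 8.47 in DMSO, 8.69, 8.85 and 8.68 in SAHA, 9.97, 9.82 and 9.91 in Pargyline, and 9.10, 9.48 and 9.25 in COMBO, and its COMBO arrays lay between SAHA and Pargyline. The interaction was -0.77 ± 0.14 (SE, adjusted p = 0.0192). MANBA, a lysosomal mannosidase and the list member above 0, was named after its values were seen. It lay between 1.85 and 2.82 in all arrays, near the low end, and had an interaction of 0.57 ± 0.08 (SE, adjusted p = 0.0095).

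Of 55 mitosis genes 48 fell with SAHA and 29 with pargyline, beside 23.1% and 7.45% of all genes. For the interaction 1 passed (1.82%), CDC25B, a phosphatase that activates cyclin-dependent kinases, at 0.49 ± 0.08 (SE, adjusted p = 0.0127). CDC25B was above 0, while the list's median was -0.22. Median changes of the list were -1.10 with SAHA, -0.53 with pargyline and -1.82 with both. Of 51 DNA replication genes 3 passed below 0 and 1 above, with a median of -0.24. CDT1, a licensing factor of replication origins named after its values were seen, had values of 6.53, 6.16 and 6.24 in DMSO, 5.20, 5.13 and 5.06 in SAHA, 6.14, 5.81 and 6.10 in Pargyline, and 3.64, 3.62 and 3.93 in COMBO. Its COMBO arrays were the lowest, beyond the sum, with an interaction of -1.11 ± 0.18 (SE, adjusted p = 0.0125). CCNE1, cyclin E1, likewise named after its values were seen, had an interaction of -0.67 ± 0.12 (SE, adjusted p = 0.0184), which did not pass after quantile normalization, centring or with a trended and robust prior. Of 23 ribosome biogenesis genes 2 passed above 0, NPM3 among them, with a median of 0.25. In the list of 15 histone genes 1 passed, H4C8, and H3C2 lay outside the list. None of 20 growth arrest, 25 apoptosis or 33 oxidative phosphorylation genes passed. The 95% interval lay within 0.5 of 0 for 6, 10 and 31 of them in that order, beside 60.8% of all genes. It did so for 8 of the 55 mitosis genes and 11 of the 51 DNA replication genes, so that most of these were left undetermined.

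Immune and lineage lists held few interaction genes each, and differences between these lists were not tested. Of 41 interferon-stimulated genes 1 passed above 0, IFI35, and 1 below (4.88% in all, beside 3.72% of all genes). Of 28 antigen presentation genes 2 passed on each side (14.3% in all), and 2 of these 4 were held. PSMB9, an immunoproteasome subunit named after its values were seen, had values of 3.84, 3.81 and 3.45 in DMSO, 6.45, 6.18 and 6.29 in SAHA, 5.24, 4.83 and 5.08 in Pargyline, and 6.14, 6.22 and 6.64 in COMBO, with SAHA and COMBO overlapping, and an interaction of -1.33 ± 0.23 (SE, adjusted p = 0.0166). TNFAIP2, a gene induced by TNF and the 1 of 27 inflammatory genes that passed, had an interaction of 0.79 ± 0.16 (SE, adjusted p = 0.0305) and was not held, since it did not pass without SAHA replicate 1 or 2, Pargyline replicate 1 or 3, or COMBO replicate 1 or 2 (0.73 to 0.81).

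Of 29 epithelial genes 3 passed below 0. KRT19, a keratin of simple epithelia, was held and had values of 10.27, 10.03 and 10.41 in DMSO, 13.04, 13.08 and 12.86 in SAHA, 11.34, 11.03 and 11.29 in Pargyline, and 12.94, 13.09 and 12.65 in COMBO, with SAHA and COMBO overlapping above Pargyline. The interaction was -1.08 ± 0.19 (SE, adjusted p = 0.0189), and KRT19 was also the 1 of 16 luminal genes that passed. Of 34 mesenchymal genes 1 passed, THBS1, the matrix protein thrombospondin, at -0.84 ± 0.19 (SE, adjusted p = 0.0428), and it passed only without SAHA replicate 1 among the fits without 1 array (-0.89 to -0.74 in the others), and neither after quantile normalization or centring nor with every probe set tested on its own. Of 29 neuronal and 14 circadian clock genes 1 each passed, both below 0 and neither held.

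**Figure D4:**
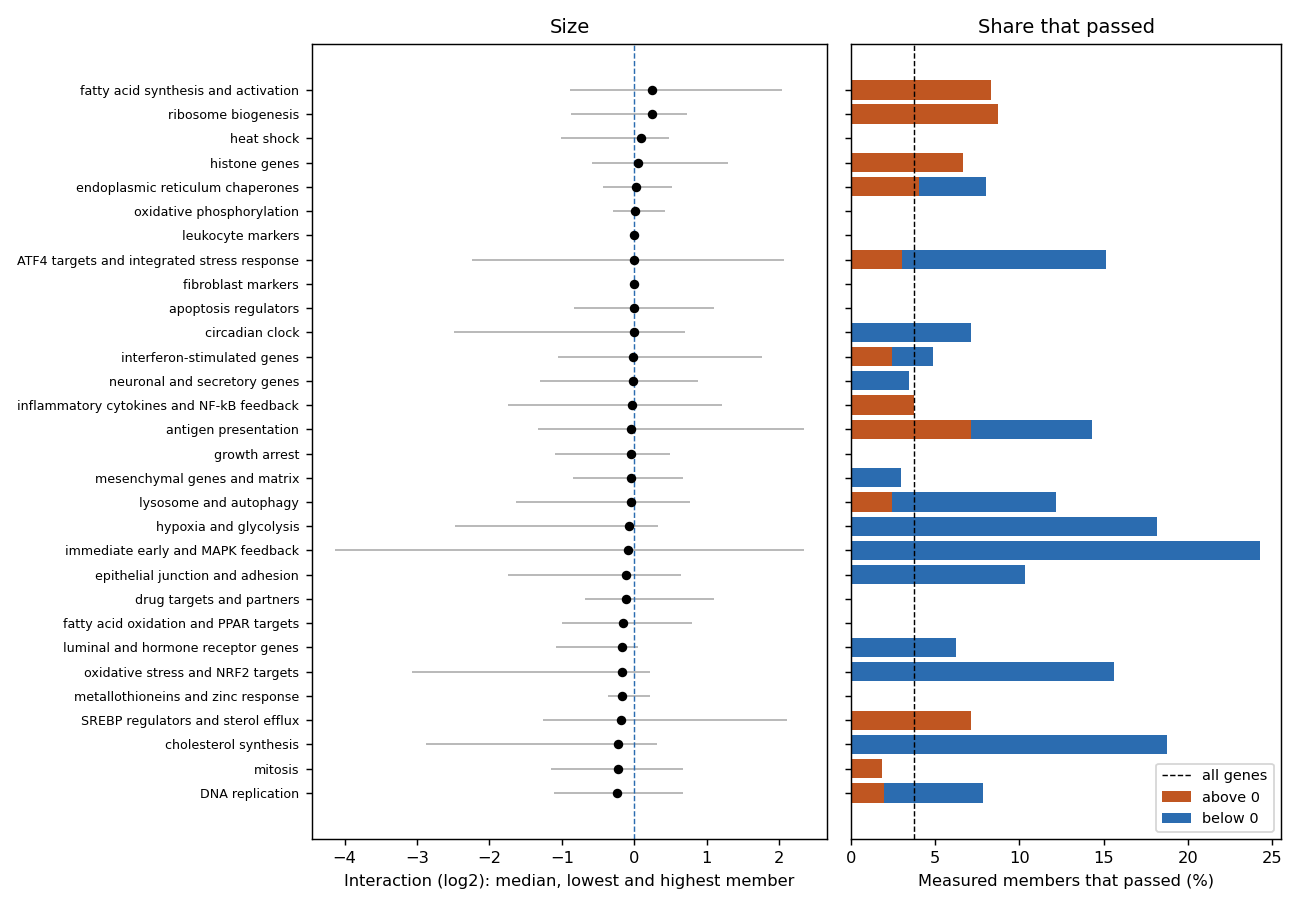
Interaction of 30 gene lists: left, the median (point) and the range from the lowest to the highest member (line) in log2 units, with the median of all genes as a dashed line; right, the share of measured members that passed above and below 0 (percent), with 3.72% of all genes as a dashed line. The list of immediate early and MAPK feedback genes has the longest bar, 24.3%, all below 0, while medians lie between -0.24 and 0.25.

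The genes nearest the threshold are given as values. Just inside lay ZNF226 with an interaction of -1.03 ± 0.24 (SE, adjusted p = 0.0492), HSPA6 with -0.56 ± 0.13 (SE, adjusted p = 0.0492), PPP1R3C with -1.13 ± 0.26 (SE, adjusted p = 0.0495) and ZSCAN16 with 1.12 ± 0.26 (SE, adjusted p = 0.0495). Just outside lay TRIM38 with 0.77 ± 0.18 (SE, adjusted p = 0.0504), SF3A1 with 0.54 ± 0.13 (SE, adjusted p = 0.051), NR4A2 with -1.58 ± 0.37 (SE, adjusted p = 0.0514) and CA11 with -0.14 ± 0.03 (SE, adjusted p = 0.0514). Further probe sets gave 0.68 ± 0.14 and 1.19 ± 0.35 (SE) for TRIM38, and 0.34 ± 0.19 and 0.33 ± 0.07 (SE) for SF3A1. Those of NR4A2 gave -0.81 ± 0.44 and -1.29 ± 0.24 (SE), and that of HSPA6 gave -0.25 ± 0.17 (SE). Of the 445 genes, 39 had at least 1 group mean below the lower tertile of 2.51, 17 of them below 0 with SAHA or COMBO at the low end and 20 above 0 with DMSO or Pargyline there, where a low end of the scale limits how far a value can fall. When additivity was taken on linear intensities, 419 of the 439 genes with a sum above 0 kept the sign of their departure and 20 turned, 15 of these raised by both drugs. A kept sign could come with another size. The departure became -0.26 for TMEM45A, -0.30 for RPS6KA2, -0.23 for GABARAPL1, -0.24 for DUSP1, -0.20 for LAMP3 and 0.34 for CYFIP2. It was -4.41 for KLF2, -5.54 for ABCC3 and -3.42 for SULT1C2. How many departures became smaller was not counted. Probe sets listed for several genes gave 14 interactions above 0 and 20 below, and those listed for none gave 8 and 13.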

How the data were processed

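RNA of 12 cultures was measured on an Affymetrix human expression array, 1 array a culture. The deposited values, on the log2 scale, are intensities summarized by the authors with RMA, per the submitters' processing notes. Its version, and whether all arrays were normalized in one run, are not given in the sources used here. They were used as deposited, and the number of arrays limits the precision. Symbols came from the platform annotation, which listed 1043 probe sets for several genes and 2108 for none (tested apart), besides 62 controls. Probe positions were not used here.

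A mean per group was fitted to all 12 arrays with limma (version 3.58.1, R version 4.3.3), using lmFit and eBayes, with 8 residual degrees of freedom and two-sided tests. P-values were Benjamini-Hochberg adjusted over all 11963 genes, with a threshold of 0.05. Errors are standard errors of that model. The procedure was tested on simulated data.

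The genes were grouped, and the 30 gene lists (drug targets, lipid, stress, immune, growth, lineage and other-cell markers) written, with earlier results of these data known. Named were, above a highest group mean of 7.06: the 15 highest and lowest interactions, the 3 largest per form and direction, the 6 strongest common rises, common falls and opposite responses, and up to 4 called members a list. At any level, the drug targets and 4 genes on each side of the threshold were named. Other genes are marked as named after their values were seen. Each gene that passed differs between groups by that choice.

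Alternatives were quantile normalization, centring arrays, leaving out genes below the lower tertile or the median, all probe sets or their mean, array weights, blocking on replicate number, a prior that is trended and robust, stricter thresholds, linear additivity, and leaving out each array in turn.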

Additional observations from a re-analysis of the deposited data

Results flagged for a closer look

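Some genes changed in opposite directions under the same contrast depending on the other drug, with both changes and the interaction past the threshold. Pargyline alone raised RHOB, S100A4, S100A3, S100A2, IER3 and DUSP5 and lowered them beside SAHA. For RHOB it changed the level by 0.81 alone and -1.44 beside SAHA (interaction -2.25). For S100A4 these were 0.75 and -1.04 (interaction -1.79), for S100A3 1.26 and -0.46 (interaction -1.72), and for S100A2 0.82 and -0.86 (interaction -1.69). For IER3 they were 0.51 and -0.26 (interaction -0.76), and for DUSP5 0.26 and -0.21 (interaction -0.47). Pargyline lowered KHDRBS3 by 0.33 alone (-0.33) and raised it by 0.65 beside SAHA (interaction 0.99), and it changed BTN2A1 by -0.48 and 0.37 (interaction 0.85).

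SAHA alone raised KLF2, CSGALNACT1, AKR1C2 and HSD17B7 and lowered them beside pargyline. For KLF2 the changes were 1.26 and -2.87 (interaction -4.13), for CSGALNACT1 1.28 and -0.80 (interaction -2.08), for AKR1C2 0.77 and -1.07 (interaction -1.85), and for HSD17B7 0.59 and -0.38 (interaction -0.97). SAHA lowered HIP1, CCNL1 and THADA alone and raised them beside pargyline, with changes of -0.51 and 1.06 for HIP1 (interaction 1.56), -0.37 and 0.79 for CCNL1 (interaction 1.16), and -0.34 and 0.58 for THADA (interaction 0.92). In all, 30 genes changed direction for pargyline and 23 for SAHA with both changes past the threshold, of which 30 and 21 passed for the interaction. The interaction is the difference between these changes, so its passing adds no separate support.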

How the results depend on the processing

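All 445 interaction genes kept their sign in each alternative fit that held them, except 1 under the mean of all probe sets. The number that passed was 406 after quantile normalization (382 of them among the 445), 435 with arrays centred (362 among them), 379 with a trended and robust prior and 473 with the mean of probe sets. It was 1079 with array weights (446 above and 633 below 0), 92 at an adjusted p under 0.01 (28 and 64) and 143 at 2-fold or more (33 and 110). Leaving out each array in turn gave 245 to 656 interaction genes, 168 to 354 short of the sum, 19 to 127 beyond it, 27 to 95 with opposite responses and 19 to 80 with neither drug passing. The same fits gave 655 to 1185 genes beyond both single drugs, 1213 to 1968 for Pargyline against DMSO and 1239 to 1995 for COMBO against SAHA. Centring arrays gave 7040 genes for Pargyline against DMSO (872 higher, 6168 lower) and 10022 for COMBO against DMSO (2503 and 7519), since array medians differed more between groups than within them. Genes with an interval within 0.5 of 0 numbered 3422 without the lower tertile and 2853 without genes below the median, 42.9% and 47.7% of the genes then tested, beside 60.8% of all genes. On linear intensities the departure turned for ENPP2 (0.23), MYLIP (-0.0556), IFI35 (-1.20) and ATF3 (0.87).

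With the replicate number as a block 670 genes passed (275 above and 395 below 0), 414 of them among the 445 and HSP90B1 not, with 73 beyond the sum and 98 of opposite responses. Deviations from the group means of arrays with the same number correlated at 0.08 to 0.53 over 18 pairs, 13 of them over 0.1, and at -0.52 to 0.25 over 36 pairs of different number. All 12 arrays correlated best, on average, with their own number. The labels give no shared culture date, so the numbers were not taken as pairs.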
